A study of Bos taurus with 6 samples.

Results

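The miRNAs of the imprinted DLK1-DIO3 region were followed in extracellular vesicles (EVs) from the serum of 6 dairy cows. EVs are membrane-enclosed particles shed by cells, and the small RNAs purified from them gave 1 library for each cow. Members were chosen by name alone, as known Bos taurus miRNAs whose number is one of 40 numbers used for miRNAs of this region, with letters and arm ignored. This gave 23 miRNAs, which are 6.41% of the 359 known miRNAs listed while the table also lists 347 newly predicted ones. Of the 40 numbers, 21 had at least 1 miRNA in the count table and 19 had none, among them miR-134, miR-136, miR-376 and miR-379. All cows were female Holsteins in mid lactation, kept in climate chambers at the same temperature and humidity. The 3 control cows received a total mixed ration (TMR), and for the 3 tested cows part of the alfalfa hay in the feed was replaced by whole cotton seed and soybean hull. Feeding lasted 30 days, and each group is limited to 3 animals. The counts on all miRNAs ranged from 1277693 to 2176002 per library.

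Imprinted genes are read from the copy inherited from 1 parent only. In the DLK1-DIO3 region, the protein-coding genes DLK1, RTL1 and DIO3 are expressed from the paternal chromosome, and the long RNAs MEG3 and MEG8 with a long row of miRNAs are expressed from the maternal chromosome. DLK1 is a transmembrane protein of the Notch ligand type, and DIO3 inactivates thyroid hormone. A group of these miRNAs lies opposite RTL1 and can pair with its mRNA perfectly, and a larger group, named after miR-379 and miR-410, lies further towards DIO3. The region is known for high expression in embryo, placenta, brain and developing muscle, and in sheep a mutation there causes the callipyge muscle overgrowth.

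The names were checked against the genome. Each of the 23 miRNAs matched 1 miRNA gene in the assembly ARS-UCD2.0, and all 23 genes lay on chromosome 21 between DLK1 and DIO3. That assembly lists 58 miRNA genes from the first to the last member, of which 35 had no miRNA in the count table. No other known miRNA of the table lay in this stretch. The genes of bta-miR-433, bta-miR-127 and bta-miR-432 start inside RTL1. In all, 5 members belonged to the MEG3 and RTL1 side and 18 to the side of miR-379 and miR-410, and the order of the genes separated these sides without exception. No hairpin had both of its arms in the table, so the use of arms could not be compared.

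The sequences, from the count table and written 5′ to 3′, belong to the member counted in every library and to the members with the largest counts or the closest relatives. The capitals mark the seed, bases 2 to 8, through which a miRNA pairs with its targets.
bta-miR-127: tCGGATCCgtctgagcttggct
bta-miR-323: gCACATTAcacggtcgacctct
bta-miR-323b-3p: cACAATACacggtcggcctct
bta-miR-154c: aGATATTGcacggttgatctct
bta-miR-380-3p: tATGTAATgtggtccacgtct
bta-miR-411a: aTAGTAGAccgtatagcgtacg
bta-miR-495: aAACAAACatggtgcacttctt
bta-miR-543: aAACATTCgcggtgcacttctt

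No seed was shared between members, and 1 member, bta-miR-543, had its seed in common with a newly predicted sequence. The closest pair was bta-miR-323 and bta-miR-323b-3p, which are 2 edits apart and have the run tacacggtcg in common, with seeds that differ. The next closest, bta-miR-495 and bta-miR-543, are 4 edits apart and end in the same 12 bases, ggtgcacttctt. From bta-miR-154c, bta-miR-323 is 5 edits away. No member lay within 1 edit of any other listed miRNA, and 18 of the 23 were at least 5 edits from all others. Of the 23 sequences, 15 were 22 nt long, and 21 nt and 23 nt had 4 each.

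The members held a small share of the serum EV-miRNAs. Over the 6 libraries the 23 miRNAs had 1340 counts, which is 0.0125% of 10731042 counts on known miRNAs. Of the 1340 counts, 815 (60.8%) belonged to bta-miR-127, and 525 to the other 22 members together. The members with the next highest totals were bta-miR-323 with 93 counts, bta-miR-380-3p with 72, bta-miR-411a with 67 and bta-miR-493 with 55. The median total of a member was 12 counts, against 148 for the 336 known miRNAs outside the region.

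**Figure D1:**
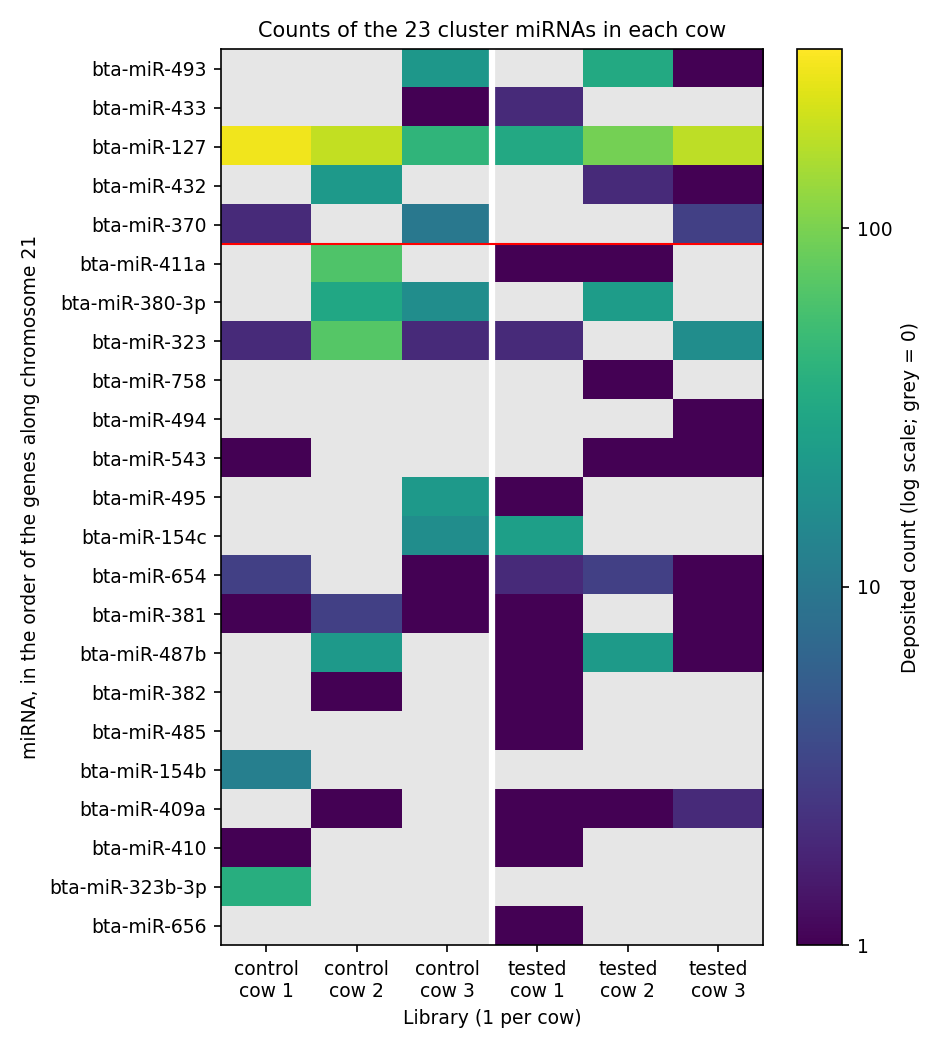
Deposited counts of the 23 members (rows, in the order of their genes) in the 6 libraries (columns), coloured on a log scale, with grey for a count of 0. The red line separates the MEG3 and RTL1 side above from the miR-410 side below; only bta-miR-127 is coloured in all 6 columns, and the other members with 10 or more counts reach them in 1 to 3 cows.

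On the MEG3 and RTL1 side, bta-miR-127 was the member with the highest level. It is known for its perfect pairing with the RTL1 mRNA, which it helps to cut in placenta. Its counts were 281, 185 and 43 under the control diet against 32, 95 and 179 under the tested diet. As CPM, which are counts scaled to the size of each library with TMM factors, these were 170.4, 89.6 and 23 under the control diet against 24.9, 51.4 and 75.3 CPM under the tested diet. In CPM, the highest and the lowest value were both found in control cows, and the tested cows lay between them. Among the known miRNAs, bta-miR-127 took rank 118 by its mean level, and its best rank in a library was 90, in control cow 1. Its level differed 7.41-fold between the control cows and 3.02-fold between the tested cows. For the 173 known miRNAs with counts in all 6 libraries, the median fold between the highest and the lowest cow was 2.69, and 47 of them had a larger fold than bta-miR-127.

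The other members on this side were scarce. The counts of bta-miR-493 were 0, 0 and 21 under the control diet against 0, 33 and 1 under the tested diet, so that 1 cow of each group stood apart. For bta-miR-432, which also lies opposite RTL1, they were 0, 22 and 0 under the control diet against 0, 2 and 1 under the tested diet. For bta-miR-370, known to act on the fatty acid oxidation enzyme CPT1A, they were 2, 0 and 10 under the control diet against 0, 0 and 3 under the tested diet. The high values of these miRNAs lay in control cow 2 or control cow 3 and, for bta-miR-493, in tested cow 2. The remaining member, bta-miR-433, had 3 counts in all.

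On the miR-410 side no member was counted in all cows. The counts of bta-miR-323 were 2, 70 and 2 under the control diet against 2, 0 and 17 under the tested diet. Its relative bta-miR-323b-3p had 37 counts in control cow 1 and 0 in every other cow. The cow with the highest count was thus a different one for each of this pair, whose sequences are 2 edits apart. Against a floor of 3 counts over the other 5 libraries, bta-miR-323b-3p was at least 73.6-fold higher in control cow 1. Bounds and intervals given for counts take in the error of counting alone. They are too narrow even for that error where PCR copies of 1 molecule were counted more than once.

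The gene next to bta-miR-323 among the members is that of bta-miR-380-3p, with 0, 31 and 17 counts under the control diet against 0, 24 and 0 under the tested diet. It was the member, after bta-miR-127, with 10 or more counts in the most cows, 3 of 6. The counts of bta-miR-411a, next in order, were 0, 65 and 0 under the control diet against 1, 1 and 0 under the tested diet. The 3 neighbours bta-miR-411a, bta-miR-380-3p and bta-miR-323 thus all had their highest counts in control cow 2. This was not limited to neighbours, as bta-miR-432 of the MEG3 and RTL1 side also had its highest count, 22, in this cow. In the other cows the 3 neighbours did not move together. Control cow 3 and tested cow 2 had bta-miR-380-3p at 17 and 24 counts, with the other 2 neighbours at 2 or fewer.

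The counts of bta-miR-495 were 0, 0 and 22 under the control diet against 1, 0 and 0 under the tested diet. Its relative bta-miR-543 never exceeded 1 count in a cow. For bta-miR-154c, whose gene follows that of bta-miR-495 among the members, they were 0, 0 and 17 under the control diet against 26, 0 and 0 under the tested diet. The counts of bta-miR-487b were 0, 22 and 0 under the control diet against 1, 23 and 1 under the tested diet. Each of the latter 2 was thus high in 1 cow per group, and for bta-miR-154b all 12 counts came from control cow 1. By contrast bta-miR-654 had 10 counts spread over 5 cows, with at most 3 in a cow. The other 9 members of this side, bta-miR-758, bta-miR-494, bta-miR-543, bta-miR-381, bta-miR-382, bta-miR-485, bta-miR-409a, bta-miR-410 and bta-miR-656, had between 1 and 7 counts in all.

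The counts were either very low or clearly above the lowest level. Of the 138 values (23 miRNAs in 6 cows), 75 were 0, 40 were 1 to 3, 0 were 4 to 9 and 23 were 10 or more. Of the 23 high values, 6 belonged to bta-miR-127 and 17 to 11 other members, and of these 11, 6 had a high value in 1 cow, 4 in 2 cows and 1 in 3 cows. Among known miRNAs outside the region, 77 of 1408 values above 0 (5.47%) were 4 to 9. In the 112 of them with 10 to 100 counts in all, 35 of 267 values above 0 (13.1%) were 4 to 9. The 12 members with such totals had 35 values above 0, and 0 of these were 4 to 9. This range of totals was chosen after the counts were seen. In the same 112 miRNAs, at least 90% of the counts came from 1 cow for 57.1%, against 4 of the 12 members in that range (33.3%), a lower share, so that counts held mostly by 1 cow were not particular to the region.

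**Figure D2:**
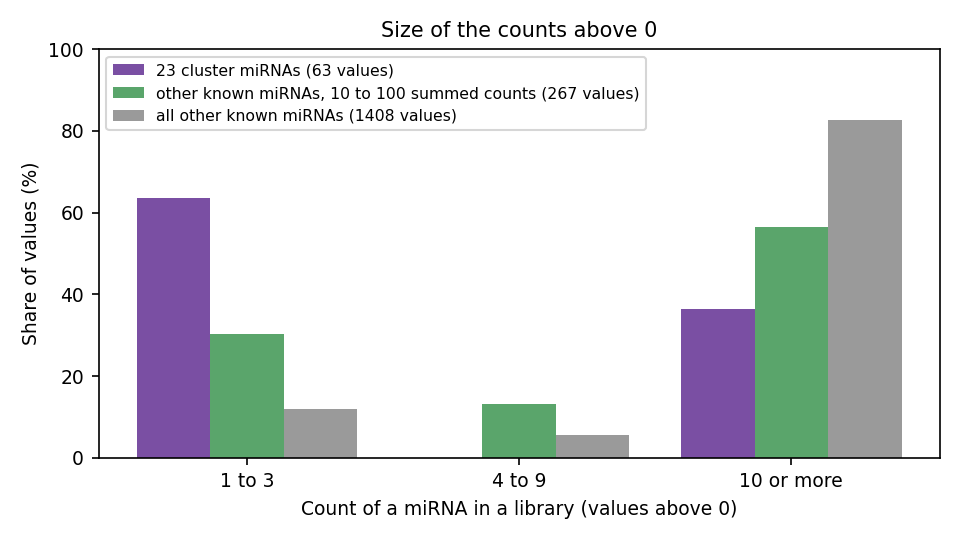
Share of the values above 0 (y axis, percent) that were 1 to 3, 4 to 9 or 10 or more counts (x axis), for the 23 members, for the other known miRNAs with 10 to 100 counts in all and for all other known miRNAs. The members have no bar at 4 to 9, where the other lists hold 13.1% and 5.47%. The 12 members with 10 to 100 counts in all, not drawn apart, had 35 values above 0. Of these 51.4% were 1 to 3 and 0 were 4 to 9.

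The number of members found in a cow depended on the count required. With at least 1 count, 9, 9 and 10 members were detected under the control diet against 14, 10 and 11 under the tested diet, with means of 9.33 ± 0.577 (SD, n = 3) and 11.7 ± 2.08 (SD, n = 3). With at least 10 counts there were 3, 6 and 6 under the control diet against 2, 4 and 2 under the tested diet, with means of 5 ± 1.73 (SD, n = 3) and 2.67 ± 1.15 (SD, n = 3). The order of the groups thus turned. Members with exactly 1 count numbered 3, 2 and 3 under the control diet against 9, 4 and 7 under the tested diet. Tested cow 1, which had the most of them, had the library with the fewest counts, and the part of depth in this was not tested. With all libraries thinned to the size of this one, it had 14 members against 7.82 to 8.72 in the other cows. No test was made on these numbers.

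The study was designed to ask whether serum EV-miRNAs differ with the feed. In CPM of the known miRNA counts, the 23 members together had 221, 199 and 67.8 under the control diet against 59.5, 97.9 and 99.6 under the tested diet. Control cows thus averaged 163 ± 82.9 and tested cows 85.7 ± 22.7 (SD, n = 3 each). Control cows 1 and 2 lay above all tested cows and control cow 3 lay among them, and the difference of the means (-77.0, tested minus control) was smaller than the SD of the control group. Without bta-miR-127, the members had 38.4, 107 and 46.2 under the control diet against 33.4, 47.4 and 13.9 under the tested diet, so that the groups overlapped again. In serum, fewer vesicles from a source and fewer copies per vesicle cannot be told apart.

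**Figure D3:**
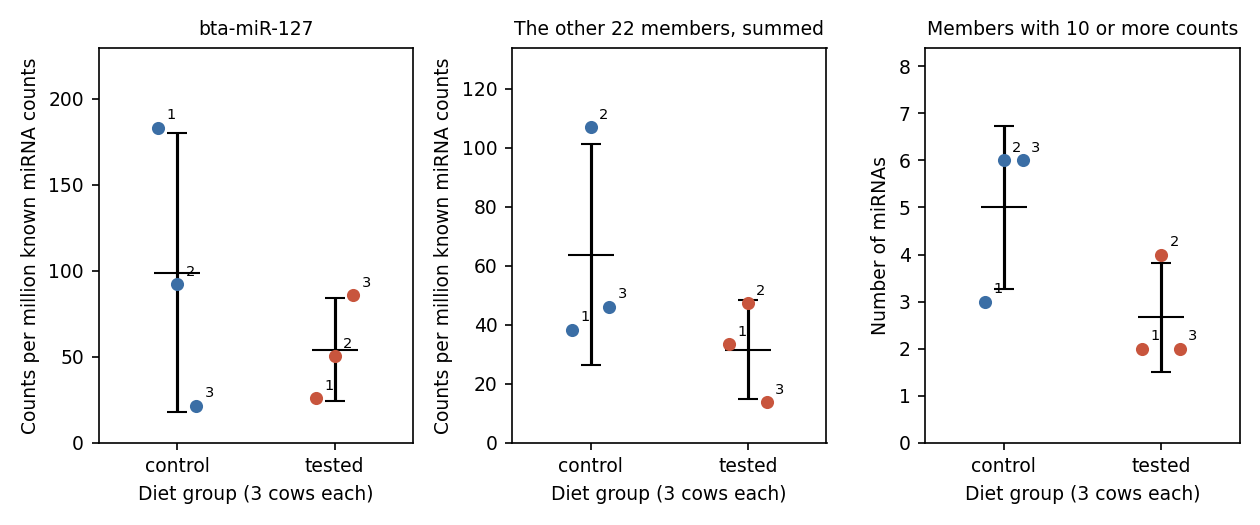
Level of bta-miR-127 and summed level of the other 22 members (y axis, CPM of the known miRNA counts), and number of members with 10 or more counts, in the 3 control and 3 tested cows. Points are cows, numbered, and the black bars give the mean ± SD; in every panel the ranges of the groups overlap.

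To compare the diets, a quasi-likelihood model of edgeR was fitted to the 623 miRNAs with at least 10 counts over the 6 libraries. Of the 23 members 13 passed this filter, and the 10 left out had 26 counts in all, none above 3 in a cow. A member counted as changed if its unadjusted p was below 0.05 and its level differed by over 1 on the log2 scale, the limits the study used. None of the 13 members passed these limits (0 of 13), and over all 623 miRNAs 3.21% passed. None of the 13 had an unadjusted p below 0.05 (4.65% of all miRNAs), DESeq2 passed 0 of 13 (4.17% of all miRNAs) and limma 0 of 13 (5.46%). The groups overlapped for all 13, whereas they did not overlap for 10.8% of the 623. Of all 23 members 1 did not overlap, bta-miR-409a, which the filter left out, with 0, 1 and 0 counts under the control diet against 1, 1 and 2 under the tested diet. Its count in control cow 2 equals that in tested cows 1 and 2, and the CPM differ by the size of the libraries.

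For bta-miR-127, control cows averaged 94.3 ± 73.8 CPM and tested cows 50.5 ± 25.2 CPM (SD, n = 3 each, two-sided exact permutation test, p = 0.5). Its log2 fold change, tested over control, was -0.90 (standard error 0.869, adjusted p = 0.751 from edgeR). Without control cow 1 it was -0.16. The largest log2 fold changes were those of bta-miR-323b-3p with -6.80 (standard error 3.52) and bta-miR-154b with -5.20 (standard error 2.90), both with an adjusted p of 0.448 from edgeR. Because the tested cows had no count of either, these values depend on the small count added in the fit. Against 3 counts over the tested group, bta-miR-323b-3p was at least 11.6-fold lower and bta-miR-154b at least 3.77-fold lower, and each rests on control cow 1 alone.

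The log2 fold change of bta-miR-411a was -4.44 (standard error 3.03, adjusted p = 0.580 from edgeR) and rests on the 65 counts of control cow 2. For bta-miR-495 it was -3.73 (standard error 3.00, adjusted p = 0.677 from edgeR), resting on the 22 counts of control cow 3. For bta-miR-323 it was -2.02 (standard error 2.41, adjusted p = 0.838 from edgeR), and without control cow 2 it turned to 1.22. Values above 0 were found for bta-miR-154c with 1.13 (standard error 2.87), bta-miR-493 with 0.69 (standard error 2.74), bta-miR-654 with 0.58 (standard error 2.16) and bta-miR-487b with 0.35 (standard error 2.65). The log2 fold changes of bta-miR-432 (-2.65, standard error 2.76), bta-miR-370 (-2.14, standard error 2.49) and bta-miR-380-3p (-0.88, standard error 2.63) were below 0 and within their standard errors of it. For bta-miR-380-3p the value was -6.91 without tested cow 2 and -0.03 without control cow 2, and for bta-miR-370 it was -4.97 without tested cow 3. The values above 0 rest on tested cow 1 or tested cow 2 except for bta-miR-654. They turned to -5.60 for bta-miR-154c without tested cow 1 and to -3.68 for bta-miR-493 without tested cow 2. For bta-miR-487b the value turned to -2.47 without tested cow 2, -0.23 without control cow 1 and -0.18 without control cow 3. The standard errors of the 12 members other than bta-miR-127 ran from 2.16 to 3.52 on the log2 scale, and each of these members was at 0 in at least 1 cow.

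On summed counts, bta-miR-411a was 30.6-fold higher in the control group (95% exact binomial interval 8.15 to 258), bta-miR-323 was 3.67-fold higher (2.19 to 6.44) and bta-miR-380-3p was 1.89-fold higher (1.13 to 3.22). Also higher there were bta-miR-495 (20.7-fold, 3.35 to 856), bta-miR-432 (6.91-fold, 2.08 to 36.1), bta-miR-370 (3.77-fold, 1.02 to 20.8) and bta-miR-127 (1.57-fold, 1.36 to 1.81). Of these, bta-miR-411a, bta-miR-495, bta-miR-432 and bta-miR-370 reached the filter through the control group alone, so nothing is read from their intervals. The adjusted p of bta-miR-495, bta-miR-432 and bta-miR-370 was 0.677, 0.795 and 0.834 from edgeR. Higher in the tested group were bta-miR-493 (1.72-fold, 0.968 to 3.11), bta-miR-154c (1.62-fold, 0.847 to 3.19), bta-miR-654 (1.59-fold, 0.377 to 7.67) and bta-miR-487b (1.21-fold, 0.652 to 2.24), each with an interval that includes 1. These intervals leave out the differences between cows, which the fit includes and under which bta-miR-411a, bta-miR-323 and bta-miR-380-3p had unadjusted p-values of 0.168, 0.418 and 0.743 from edgeR (adjusted p 0.580, 0.838 and 0.979). In direction, 9 of the 13 members had a log2 fold change below 0, against 46.5% of the 623 miRNAs and 50.6% of the 312 known ones. Nothing is read from this count, because 6 of the 13 reached the filter through the control group alone, with under 10 counts in the tested group, and 0 through the tested group alone. With no filter 10 of the 23 members were below 0, against 47.3% of all 706 miRNAs. The median log2 fold change of the 13, which the filter touches in the same way, was -2.02, or -1.91 with the 2 members that had no count in tested cows set at their bounds, against 0.07 for all miRNAs tested. Without control cow 2 the median was -0.03, and with all 23 members fitted it was 0.30. The smallest p-value that 3 cows against 3 allow in an exact permutation test is 0.1, and for the 13 members it ranged from 0.5 to 1.

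**Figure D4:**
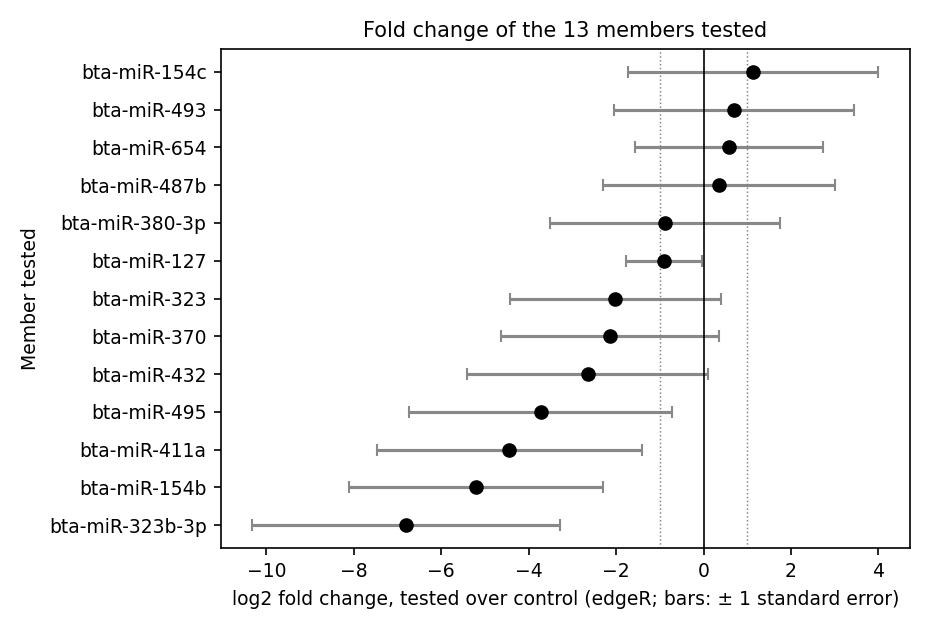
log2 fold change, tested over control, of the 13 members tested with edgeR (x axis, bars ± 1 standard error, dotted lines at -1 and 1). The values run from -6.80 for bta-miR-323b-3p to 1.13 for bta-miR-154c, and the bar of bta-miR-127 is the shortest.

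Serum EVs come from many cell types, so 7 short lists of miRNAs known from such types were read beside the members. Of their 22 miRNAs tested, 0 passed the limits with edgeR (3.21% of all miRNAs) and 0 with limma (5.46% of all miRNAs). With edgeR 1, bta-miR-141, had an unadjusted p below 0.05 (4.65% of all miRNAs). DESeq2 passed 1 (4.17% of all miRNAs), bta-miR-126-5p of the platelet and vessel list. Its log2 fold change was 2.32 with DESeq2 (standard error 1.10, adjusted p = 0.740) and 2.44 with edgeR (standard error 1.26, adjusted p = 0.448). As a share of the known miRNA counts, the epithelial list (miR-141, the miR-200 miRNAs and miR-205) was the highest, with 7.39% to 8.83% in the control cows and 8.73% to 9.29% in the tested cows. The red blood cell list (miR-451, miR-144 and miR-486) ranged from 1.35% to 2.84% and from 0.862% to 5.96%. Its highest value belonged to tested cow 1, the cow with the lowest summed level of the 23 members. In all, 5 of the 7 lists were highest in this cow, namely those for red blood cells, white blood cells, liver, muscle and neurons, and their part in the level of the members was not tested. The liver list (miR-122 and miR-192) had 0.103% to 0.157% and 0.107% to 0.195%, and the list for platelets and blood vessels (miR-126, miR-143, miR-145 and miR-223) had 0.0273% to 0.0669% and 0.0668% to 0.0826%. Most counts of the liver list were those of miR-192, with 1638 to 2039 in a cow against 313 to 734 for miR-122. In the platelet and vessel list miR-143 was the highest, with 503 to 1273 counts in a cow. The white blood cell list (miR-142, miR-150 and miR-155) had 0.0194% to 0.0364% and 0.00781% to 0.0428%. Brain and muscle express the region strongly. Of the neuronal list, miR-124, miR-138 and miR-219 had no miRNA in the table, miR-9 had between 0 and 17 counts in a cow, and the summed share of 0.0144% to 0.0224% and 0.0157% to 0.0332% came mainly from miR-128, which other tissues also express. Of the muscle list, miR-208 had no miRNA in the table, and miR-1, miR-133a, miR-133b and miR-206 together had 0.000195% to 0.000904% and 0.000319% to 0.00481%.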

How the data were processed

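Small RNAs of serum EVs, purified on a membrane affinity column, were sequenced for 6 cows, 3 per diet, and no library was left out. The authors trimmed the reads (cutadapt 1.14 and Bowtie are named in the submitters' processing notes), kept reads of a set length range, matched them to the bovine genome ARS-UCD1.2, removed other RNA classes and took known miRNAs from miRBase and further ones from miRDeep2. The counting tool is not given in the sources used here. The authors deposited counts, which are whole numbers without normalization. They also deposited RPM values under the name TPM, scaled to clean reads, and lengths of the sequences. Their base mean, a signal averaged over libraries, and the deposited columns of their comparison (log2 fold change, ratio, score and p-value) were not used, nor was their list of differently expressed miRNAs.

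Groups were taken from the sample titles. A quasi-likelihood model of edgeR 4.0.16 (glmQLFit and glmQLFTest, R 4.3.3) was fitted after TMM scaling to miRNAs with at least 10 counts over the 6 libraries, known and newly predicted together, with adjustment after Benjamini and Hochberg over all of them. DESeq2 1.42.0 and limma 3.58.1 (on log2(CPM + 1)), other factors and filters, the replicate number as a block and each library left out in turn were alternatives. The fits of edgeR, DESeq2 and limma were tested on simulated data. Standard errors of the edgeR values were back-calculated, as the absolute log2 fold change over the square root of the F statistic. They thus also depend on the small count added in the fit. For bta-miR-323b-3p the standard error of 3.52 became 2.02 with a prior count of 1. Single values were compared by exact permutation tests with SciPy 1.17.1. Floors are 3 counts. With 1277693 to 2176002 counts per library, 1 count equals 0.420 to 0.779 CPM after TMM scaling, and counting error is large for most members. Edits between sequences were counted with edlib 1.3.9.post1.

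The members, the marker lists and the threshold were chosen with earlier results of these data known. Named are the 10 members with the highest mean CPM, those past the threshold, those tested whose groups do not overlap, those with at least 10 counts all in 1 library and those sharing a seed, and the others are given by count and range. All other members were also named, after their values were seen, so that each is accounted for. Gene order came from the RefSeq table of ARS-UCD2.0, which is not the authors' assembly, so no coordinates are given. Sequences are those of the deposited count table.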

Additional observations from a re-analysis of the deposited data

How the results depend on the processing

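Depth limits these results, with 3 cows per diet and a total of 12 counts for the median member. No member (0) passed the limits under any alternative, each cow left out in turn included, and the smallest unadjusted p of a member was 0.0611. Of 198 values of single members, 192 kept their direction and 6 reversed, all 6 with a cow left out. Fits in which a member fell below the filter are not among the 198. Missing are, for example, bta-miR-323b-3p and bta-miR-154b without control cow 1 and bta-miR-411a without control cow 2. These cows held all or most of their counts, so the 192 say nothing about such fits. With a cow left out, bta-miR-493 ranged from -3.68 (without tested cow 2) to 6.55, bta-miR-323 from -3.88 to 1.22 (without control cow 2) and bta-miR-154c from -5.60 (without tested cow 1) to 6.61. The range of bta-miR-487b was -2.47 (without tested cow 2) to 6.12, with -0.23 without control cow 1 and -0.18 without control cow 3. Without changing sign, bta-miR-380-3p ranged from -6.91 to -0.03, bta-miR-370 from -4.97 to -1.63, bta-miR-495 from -5.97 to -3.16 and bta-miR-432 from -3.61 to -2.16. No fit was made of bta-miR-432 without control cow 2, or of bta-miR-370 and bta-miR-495 without control cow 3. There each fell below the filter, so its range lacks the fit without the cow that held most of its counts. The median over the members tested (-2.02) was 0.30 with no filter (23 members), -0.82 with filterByExpr (2 members left), -0.88 with limma, -1.48 with a prior count of 1 and -3.42 (without tested cow 2) to -0.03 (without control cow 2) with a cow left out. Its limit for having moved, the SD of the leave-one-out medians, was set after the values were seen. The summed share, as log2 of tested over control, was -0.93, and -1.29 to -0.64 with a cow left out. The difference in detected members (2.33) was -1.67 with at least 2 counts and -2.33 with at least 5 or 10. It was 1.79 in thinned libraries and 1.17 to 3.17 with a cow left out.

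The replicate numbers are shared by both groups but did not pair the cows, as the correlations of same-numbered cows were -0.0581, -0.0476 and -0.019. With the replicate block 0 members passed, the median was -0.89 and bta-miR-127 had -0.65. Summing bta-miR-323 and bta-miR-323b-3p, an alternative chosen after seeing the data, gave a median of -1.52. Arms of a hairpin and newly predicted sequences inside the hairpins were not compared, as no hairpin had both arms listed and no hairpin sequences were used here.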
